A study of Rattus norvegicus with 12 samples.

Results

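The baseline transcriptome of untreated N27 cells was described from the 6 untreated control arrays of a series of 12 arrays, with no treatment contrast. N27 is named in the labels as a rat dopaminergic neural cell line, and each sample's cell type is given as dopaminergic neuron. The other 6 samples of the series, exposed to 25 µM fipronil for 24 h, were not used. The 6 controls carry the replicate numbers 2, 3, 5, 6, 7 and 8 and received no fipronil. The labels do not state whether they received a vehicle or came from separate cultures. The line is an immortalised clone, so its cells share 1 origin, and total RNA was labelled with Cy3 and hybridised to one-colour rat arrays. A named gene was taken as expressed when at least 1 of its probes was well above background on all 6 arrays, as intermediate when its best probe was so on 1 to 5 arrays, and as not detected when no probe was so on any array. Of 18298 named genes, 9103 were expressed (49.7%), 2032 were intermediate and 7163 were not detected (39.1%). These 2 shares are the background against which the counts of each gene list below are read.

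Dopaminergic neurons of the midbrain make dopamine from tyrosine in a pair of steps, a hydroxylation by Th that needs the cofactor tetrahydrobiopterin and a decarboxylation by Ddc. The vesicular transporter Slc18a2 then loads dopamine into vesicles, and the plasma membrane transporter Slc6a3 takes it back up after release. In the embryo these neurons arise from floor plate progenitors under factors such as Foxa2, Lmx1a, Lmx1b, Nr4a2 and Pitx3. N27 cells were derived from fetal rat mesencephalon by immortalisation with the large T antigen of SV40, and they divide in culture.

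The level of a gene is the log2 processed signal of its probe minus the 75th percentile of that array, so a level of 0 is the brightness that 1 in 4 spots exceed. Each probe has its own brightness, and levels are therefore compared between arrays and not between genes. On this scale the lowest signal called well above background lay at -4.31 and -4.50 on controls 2 and 3, and between -5.14 and -4.78 on controls 5 to 8. A call of not detected is thus a bound and not a statement that a transcript is absent. In RNA from a whole culture, fewer cells that express a gene and less RNA per cell cannot be told apart.

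The arrays did not all look alike. Controls 2 and 3 lay on slide 1 and controls 5 to 8 on slide 2, and the 75th percentile of the signal was 269 and 279 on slide 1 and 379 to 472 on slide 2. Between 46.4% and 50.02% of the spots were well above background. Over the 9103 expressed genes, arrays of the same slide correlated at 0.975 to 0.995 (7 pairs) and arrays of different slides at 0.964 to 0.987 (8 pairs), and no 2 arrays held the same values. The SD over the 6 arrays had a median of 0.22 over expressed genes, and 92.8% of them had an SD under 0.5. Several groups of genes stood at other levels on controls 5 and 6, or on controls 5, 6 and 7, and they are described after the gene lists.

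The dopamine pathway was expressed in part. Of 15 genes of dopamine synthesis, storage and breakdown on the array, 9 were expressed, 2 were intermediate and 4 were not detected. The expressed genes included Th, 4 genes of the making and recycling of its cofactor (Gch1, Spr, Qdpr and Pcbd1), and Maoa, Aldh1a1 and Aldh2 of dopamine breakdown. Neither the decarboxylase Ddc nor either transporter, Slc6a3 or Slc18a2, was expressed.

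Tyrosine hydroxylase (Th), the rate-limiting enzyme, had levels of -1.93, -1.18, -1.16, -1.35, -1.22 and -1.40 on controls 2, 3, 5, 6, 7 and 8. Control 2 was the lowest, and the other 5 arrays lay within a narrow range. Its mean was -1.37 ± 0.29 (SD, n = 6), from 1 probe on chromosome 1, and it was expressed under all 15 alternative settings of the call. GTP cyclohydrolase 1 (Gch1), which opens cofactor synthesis, ranged from -2.12 to -1.11 with a median of -1.51, and the slide 1 arrays were its 2 lowest. Dihydropteridine reductase (Qdpr), which recycles the cofactor, had a mean of 2.57 ± 0.28 (SD, n = 6). The intermediate cofactor enzyme Pts was well above background on 5 arrays and missed the rule on control 3, where its level was -5.28.

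Aromatic amino acid decarboxylase (Ddc) was covered by 6 probes, and none was well above background on any array. The levels of its best probe ran from -7.27 to -5.36. The dopamine transporter Slc6a3 had 2 probes and 0 arrays well above background, with levels from -7.34 to -5.45. The vesicular transporter Slc18a2 had 3 probes and stood well above background on control 8 alone, at -4.29. Its value of -4.26 on control 2 lay just above the lowest flagged level of that array, but its own spot was not flagged as well above background. The related Slc18a1 was not detected. Ddc, Slc6a3 and Slc18a2 were not expressed under any of the 15 settings. Of the 2 monoamine oxidases, Maoa ranged from -3.02 to -2.60 and was expressed, and Maob was not detected, with levels from -7.10 to -5.23. Aldh1a1, an aldehyde dehydrogenase used as a marker of a subset of dopaminergic neurons, had levels of -2.98, -2.90, -3.59, -4.33, -2.83 and -2.72, with controls 5 and 6 lowest.

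**Figure D1:**
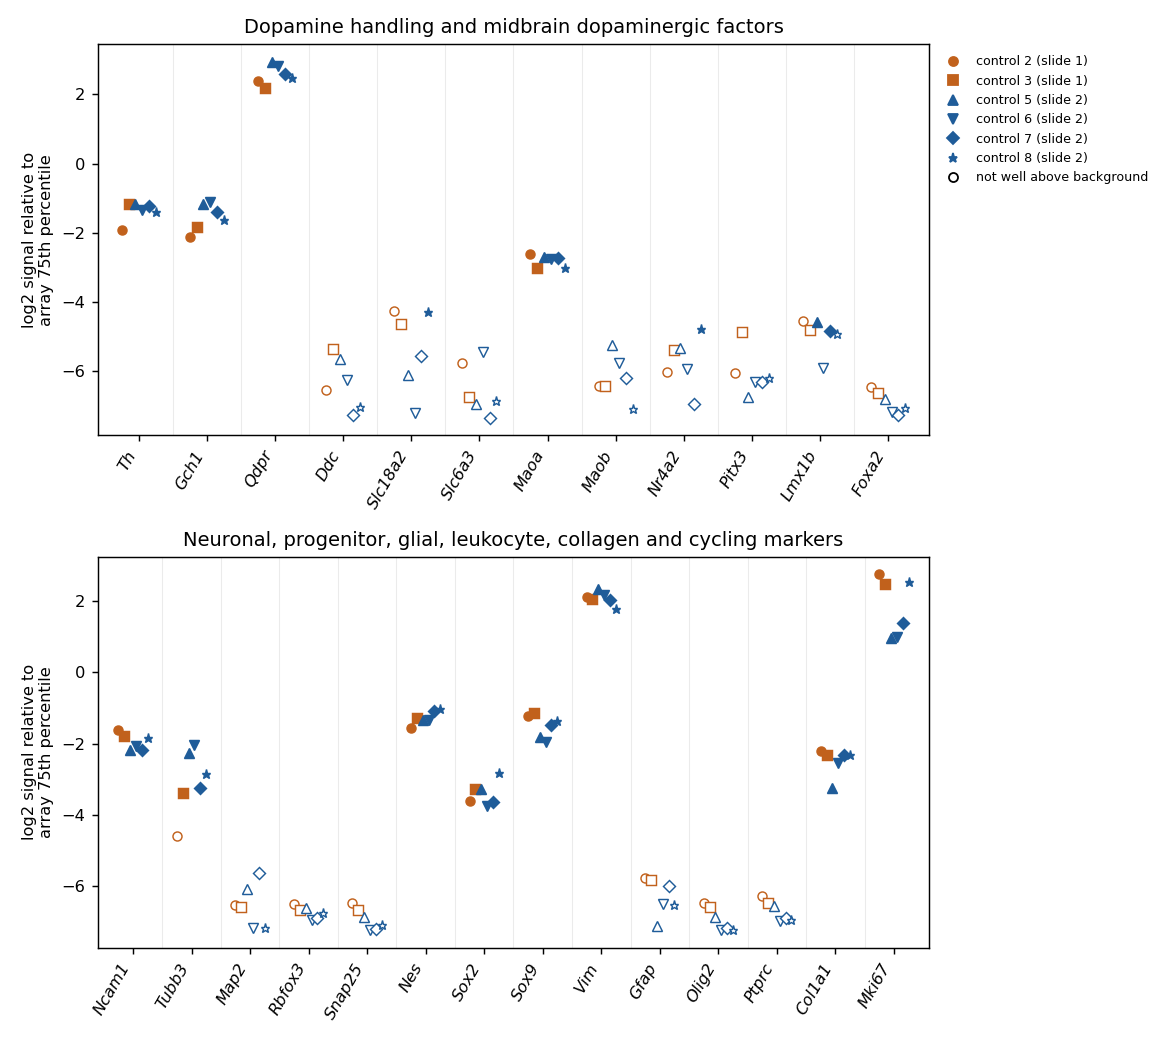
Level of marker genes on each of the 6 untreated arrays (log2 signal relative to the array's 75th percentile), with 1 symbol per array, slide 1 in orange and slide 2 in blue, and open symbols for values not well above background. Th, Gch1, Qdpr and Maoa are filled on all 6 arrays, whereas Ddc, Slc6a3, Maob, Pitx3 and Foxa2 are open on all 6, and in the lower panel Tubb3 is filled on 5 arrays and Map2, Rbfox3, Snap25, Gfap, Olig2 and Ptprc on 0.

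Midbrain dopaminergic factors had no expressed member. Of 19 transcription factors and markers of these neurons, 0 were expressed, 2 were intermediate (Nr4a2 on 1 array and Lmx1b on 2) and 17 were not detected. Nr4a2, the orphan receptor that drives Th in the midbrain, had levels from -6.95 to -4.77 over 3 probes. Pitx3, Lmx1a, Foxa1, Foxa2, En1, En2 and Otx2 were not detected, and neither were Ret and Gfra1, which form the GDNF receptor. Nr4a2 and Pitx3 were each expressed under 1 of the 15 settings. Of the markers of the labelled cell type, Th and 4 of the 5 listed cofactor genes were expressed, and none of the listed storage, reuptake and midbrain markers was. Genes of other transmitters were checked in the same way. Of 22 genes of noradrenergic, serotonergic, cholinergic, GABAergic, glutamatergic, glycinergic and histaminergic neurons, 0 were expressed and 19 were not detected, among them Dbh, Tph2, Chat, Gad1, Gad2 and Slc17a6. The adrenaline-forming enzyme Pnmt came closest, with 5 arrays well above background.

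The sequences before the gene starts are shown for 5 of these markers because the calls and the base composition can be read side by side. They are the 250 bases before the annotated start, 5′ to 3′, from RefSeq on build GRCr8, with each CpG in capitals. Th (expressed) lies at chr1:207508219-207508468, minus strand, and has 13 CpG. Slc6a3 (not detected) lies at chr1:31578963-31579212, minus strand, and has 20 CpG. Ddc (not detected) lies at chr14:90682784-90683033, minus strand, and has 2 CpG. The intermediate filament genes Vim (expressed) and Gfap (not detected) lie at chr17:81577011-81577260, plus strand, with 11 CpG, and at chr10:88361662-88361911, minus strand, with 1 CpG.
Th: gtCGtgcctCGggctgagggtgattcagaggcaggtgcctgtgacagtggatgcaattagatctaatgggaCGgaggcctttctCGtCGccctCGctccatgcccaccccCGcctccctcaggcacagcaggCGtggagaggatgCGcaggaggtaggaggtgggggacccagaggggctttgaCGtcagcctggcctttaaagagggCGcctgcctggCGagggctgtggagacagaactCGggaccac
Slc6a3: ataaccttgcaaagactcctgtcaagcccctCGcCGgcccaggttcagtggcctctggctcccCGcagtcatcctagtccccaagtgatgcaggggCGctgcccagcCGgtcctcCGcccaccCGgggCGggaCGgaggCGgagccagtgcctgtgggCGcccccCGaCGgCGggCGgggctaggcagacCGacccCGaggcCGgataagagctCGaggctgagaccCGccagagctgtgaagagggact
Ddc: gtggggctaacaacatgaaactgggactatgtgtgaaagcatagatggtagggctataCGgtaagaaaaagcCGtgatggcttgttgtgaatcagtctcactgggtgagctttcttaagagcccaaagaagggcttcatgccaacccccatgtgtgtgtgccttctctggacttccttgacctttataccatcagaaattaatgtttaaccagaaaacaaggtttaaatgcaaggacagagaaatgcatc
Vim: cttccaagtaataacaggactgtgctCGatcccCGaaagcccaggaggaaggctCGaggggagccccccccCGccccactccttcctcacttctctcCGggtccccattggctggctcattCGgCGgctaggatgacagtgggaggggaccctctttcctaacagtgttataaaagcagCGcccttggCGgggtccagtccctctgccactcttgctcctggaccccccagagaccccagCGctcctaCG
Gfap: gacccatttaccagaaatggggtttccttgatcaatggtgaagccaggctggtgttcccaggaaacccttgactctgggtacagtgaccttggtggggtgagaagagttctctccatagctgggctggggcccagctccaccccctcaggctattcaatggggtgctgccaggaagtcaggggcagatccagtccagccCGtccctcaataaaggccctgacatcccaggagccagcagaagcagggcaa
The Th sequence holds a cAMP response element, TGACGTCA, which 1.70% of all 27456 promoters in the table hold. The Vim and Ddc sequences hold a TATA box, TATAAA on either strand, found in 13.1% of all promoters. The call did not follow CpG number gene by gene, since Slc6a3 had the most CpG of these 5 sequences.

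Over all named genes with a promoter sequence, CpG number differed between the calls. The median number of CpG in the 250 bases was 17 for 7596 expressed genes, 11 for 1604 intermediate genes and 4 for 5722 genes not detected. At least 10 CpG were present in 80.3%, 52.6% and 28.6% of them. A TATA box was present in 6.15%, 11.2% and 17.8%, and the E-box CACGTG in 8.57%, 6.17% and 4.95%. These shares describe genes and carry no test, and a motif match does not show binding.

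**Figure D2:**
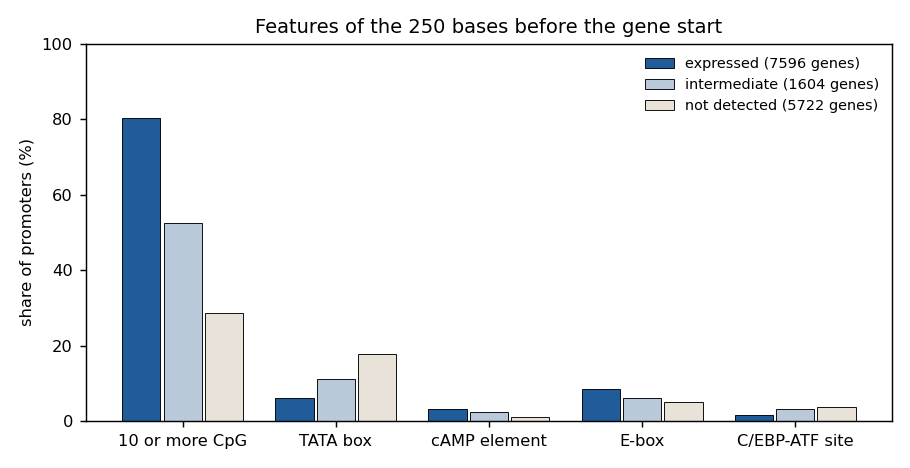
Share of genes (%) whose 250 bases before the start hold at least 10 CpG, a TATA box (TATAAA), a cAMP response element (TGACGTCA), an E-box (CACGTG) or a C/EBP-ATF site (TGATGNAA), for expressed, intermediate and not detected genes. The share with at least 10 CpG is 80.3%, 52.6% and 28.6%, and the share with a TATA box runs the other way, at 6.15%, 11.2% and 17.8%.

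General neuronal markers were expressed in part. Of 25 genes of the neuronal cytoskeleton, RNA binding and adhesion, 6 were expressed, 7 were intermediate and 12 were not detected. The expressed members were the adhesion molecules Ncam1, L1cam, Cntn2 and Thy1, the enolase Eno2 and the RNA-binding protein gene Elavl2. Ncam1 had levels of -1.62, -1.78, -2.18, -2.06, -2.17 and -1.85 and a mean of -1.94 ± 0.23 (SD, n = 6), with 2 of its 3 probes well above background on all arrays. Both slide 1 arrays stood above all 4 arrays of slide 2 for Ncam1, and control 8 was the nearest to them. Neuron-specific tubulin (Tubb3) ranged from -4.59 on control 2 to -2.04 on control 6 and missed the rule on control 2 alone. It counted as expressed under 5 of the 15 settings. The dendritic protein gene Map2 (3 probes), the nuclear marker Rbfox3 (2 probes), and Stmn2, Gap43, Dcx, Nefl, Elavl3, Elavl4 and Uchl1 were not detected.

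Synaptic genes were divided between the calls. Of 30 genes of synaptic vesicles, release and the postsynaptic side, 6 were expressed: the release proteins Stx1a, Vamp1, Vamp2 and Cplx2, the vesicle glycoprotein Sv2a and the scaffold Homer1. Vamp2 had a median of 0.72 and Stx1a a median of -1.71. Homer1 ranged from -2.68 on control 6 to -1.16 on control 3. Snap25, Syn2, Syp, Syt1, Rab3a and Bsn were among the 16 not detected. Of the granule proteins and their convertases, Chga and Cpe were each well above background on 2 arrays, and Chgb, Scg3, Pcsk1 and Pcsk2 were not detected.

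Progenitor genes included expressed and undetected members. Of 28 neural stem and progenitor genes, 13 were expressed, a share near that of all named genes. They included the intermediate filament genes Nes and Vim, the SOX factors Sox2 and Sox9, the HES repressors Hes1 and Hes6, the ID inhibitors Id1, Id2 and Id3, and Lhx2, Zic1 and Notch1. Nes had levels of -1.57, -1.28, -1.33, -1.33, -1.09 and -1.02, a mean of -1.27 ± 0.20 (SD, n = 6), and 1 probe. Sox9, a factor of neural progenitors and glia, had a mean of -1.50 ± 0.33 (SD, n = 6) and was lowest on controls 5 and 6, at -1.82 and -1.97. Only 1 of the 4 Sox9 probes passed on all arrays, another passed on 1 array and the other 2 on none. Sox2 rested on 1 of 3 probes, with a mean of -3.40 ± 0.34 (SD, n = 6). Sox9 and Sox2 were expressed under 14 of the 15 settings and failed when most probes of a gene, or as many as not, had to pass. Pax6, Msi1, Hes5, Fabp7, Prom1, Neurog1 and Neurod1 were not detected.

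Genes that mark position along the body axis were expressed in part. Of 29 Hox genes, which set regional identity in the hindbrain, spinal cord and trunk, 9 were expressed (31.0%) and 18 were not detected (62.1%). Over all named genes these shares were 49.7% and 39.1%. All 9 expressed Hox genes belonged to the B and C clusters. In HoxB, on chromosome 10, 5 of 9 genes were expressed (Hoxb3, Hoxb5, Hoxb6, Hoxb7 and Hoxb13) and Hoxb4 was well above background on 5 arrays. In HoxC, on chromosome 7, 4 of 7 were expressed (Hoxc4, Hoxc6, Hoxc9 and Hoxc10). In HoxA and HoxD, 0 of 6 and 0 of 7 genes were well above background on any array. Hoxb6 was the steadiest of them, with levels of 1.42, 1.31, 1.38, 1.44, 1.38 and 1.37, and both of its probes passed. Hoxb5 rested on 1 of 4 probes, and Hoxb3 and Hoxc10 each on 1 of 2. Hoxc6 had a mean of -0.95 ± 0.29 (SD, n = 6) and Hoxb13 a mean of -0.42 ± 0.14 (SD, n = 6).

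**Figure D3:**
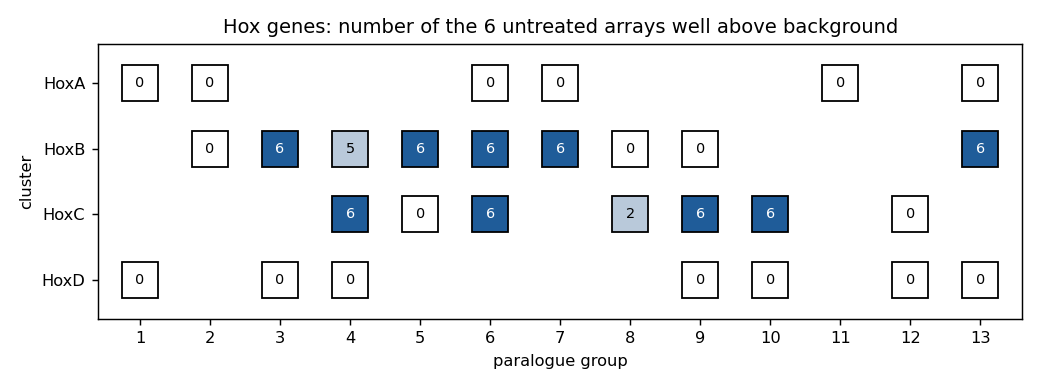
Hox genes with a probe, by cluster (vertical axis) and paralogue group (horizontal axis). The number in each square is the count of the 6 untreated arrays on which the best probe was well above background, with dark squares for 6 arrays, pale for 1 to 5 and white for 0. All 9 dark squares are in HoxB and HoxC, and all 13 squares of HoxA and HoxD are white.

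Among 29 other patterning genes, 7 were expressed, including Pax3, Pax5, Pax8, Dlx1, Meis1 and Lhx1. Pax3, a factor of the dorsal neural tube and neural crest, had levels of 3.71, 3.87, 3.51, 3.50, 3.66 and 3.45, from 1 of its 2 probes. Among the 17 not detected were Otx1, Otx2, En1, En2, Pax2, Emx1, Emx2, Shh and Fgf8.

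Glial markers were divided within each list. Of 16 astrocyte genes 8 were expressed (Aldoc, Gja1, Glul, Fgfr3, Nfib, Sox9, Slc4a4 and Ndrg2), and the defining members Gfap, S100b, Aldh1l1 and Slc1a2 were not detected. Gfap had levels from -7.12 to -5.78. Of 15 oligodendrocyte genes 3 were expressed (Mag, Cnp and Myrf), whereas Olig2, Sox10, Pdgfra and Mbp were not detected. Myrf, which encodes a membrane-bound transcription factor of myelinating cells that other tissues also express, ranged from 3.08 to 3.48.

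Markers of other lineages were checked in the same way. Of 15 microglial and leukocyte genes 4 were expressed (Cx3cr1, Tmem119, Cd68 and Cd14), and Ptprc, Aif1, Itgam, Csf1r and Spi1 were not detected. Cx3cr1 rested on 1 of 2 probes and ranged from -1.15 to -0.31. Of 14 endothelial and pericyte genes 5 were expressed (Flt1, Vwf, Pdgfrb, Acta2 and Anpep), and Pecam1, Kdr, Tek and Cldn5 were not detected. Vwf rested on 1 of 2 probes. Of 20 markers of liver, muscle, pancreas, blood and retina 2 were expressed, the contractile genes Tnnt2 and Actc1, and Alb, Afp, Myod1 and Gata1 were not detected. The part that other cells could have in any of these signals was not tested.

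Mesenchymal genes were expressed in 12 of 24 cases, close to the share over all named genes. They included collagen I (Col1a1), fibronectin (Fn1), Vim, S100a4 and Tagln, and the transcription factors Snai1, Twist2, Zeb1, Zeb2 and Prrx1. Fn1 ranged from 2.0 to 2.73. Col1a1 was at -3.25 on control 5 and between -2.54 and -2.21 on the other 5 arrays. Col3a1, Cdh2, Cdh11, Twist1, Postn, Dcn and Lum were not detected. Of 13 neural crest and Schwann genes 5 were expressed (Tfap2a, Pmp22, Mitf, Ets1 and Pax3), and Sox10, Ngfr and Erbb3 were not detected. The melanocyte and osteoclast regulator Mitf passed with both probes and was highest on control 2, at 2.89, against 1.64 to 2.55 elsewhere. Of 15 epithelial genes 3 were expressed, with keratin 7 (Krt7) passing on all 3 of its probes at a mean of 1.85 ± 0.23 (SD, n = 6), and Cdh1, Epcam, Krt18 and Krt19 were not detected.

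Among imprinted genes 9 of 16 were expressed: Igf2, Igf2r, Meg3, Peg3, Mest, Plagl1, Cdkn1c, Nnat and Gnas. H19, Dlk1, Ndn and Magel2 were among those not detected. Of 8 named genes on chromosome Y, Ddx3y alone was expressed, with 1 of its 2 probes. Its levels were -2.57, -2.62, -3.58, -3.70, -3.56 and -2.56, so that controls 5, 6 and 7 were lowest, and its X-linked relative is close in sequence. Tspy1 was well above background on 4 arrays, and the other 6, among them Kdm5d, Uty, Eif2s3y and Sry, were not detected. Of 1173 olfactory receptor genes, a family named for its role in the nose, 12 were expressed and 1069 not detected. That count moved with the setting, to 32 when 3 of 6 arrays sufficed and 48 with the flag for a positive and significant signal. It was 1 with the gene names of the array files, but there a member listed under another name counted as not expressed. Of 212 vomeronasal and taste receptor genes, 5 were expressed under the rule.

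**Figure D4:**
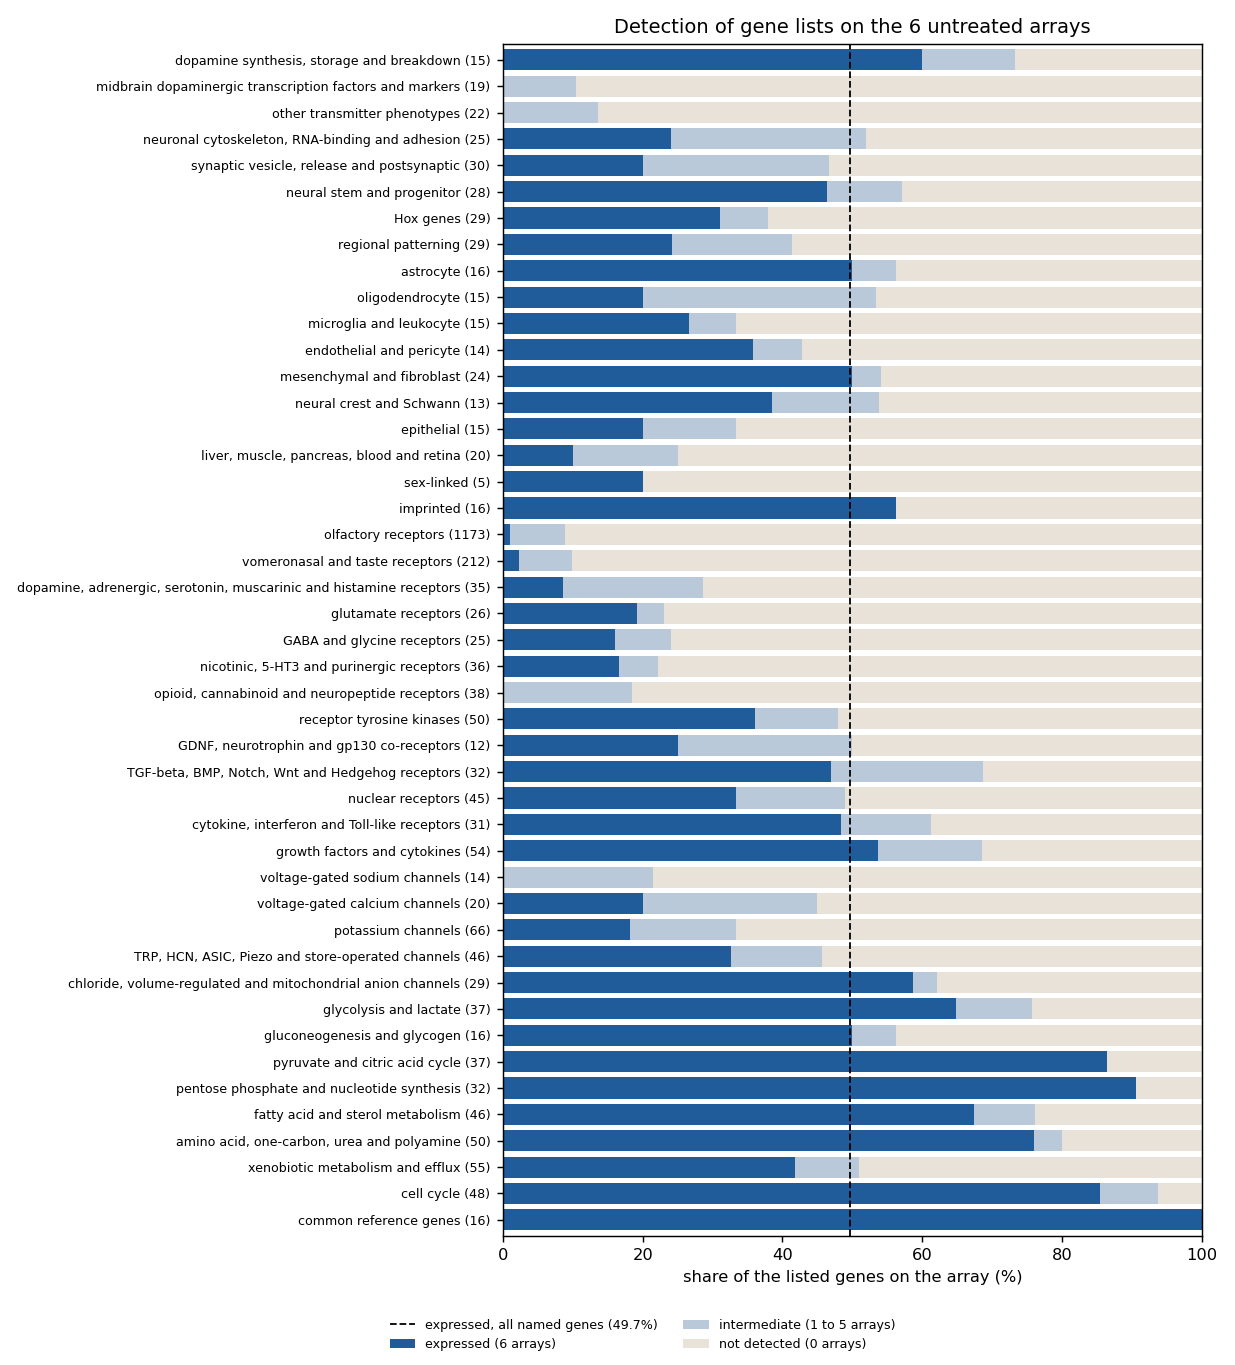
Share of each gene list (%) that was expressed, intermediate or not detected on the 6 untreated arrays, with the number of list members on the array in parentheses. The dashed line marks the 49.7% of all named genes that were expressed. Citric acid cycle, nucleotide and cell cycle lists reach beyond it, whereas midbrain dopaminergic, other transmitter, neuropeptide receptor and sodium channel lists have no expressed member.

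Over all receptor lists, which also hold growth factor, cytokine and nuclear receptors, 84 of 330 genes were expressed (25.5%). Of 35 receptors for dopamine, noradrenaline, serotonin, acetylcholine (muscarinic) and histamine, 3 were expressed: the alpha-2B adrenoceptor Adra2b and the histamine receptors Hrh3 and Hrh4. All of Drd1 to Drd4 were not detected, and Drd5 was well above background on 2 arrays. Hrh4 had levels of 0.72, 0.74, 0.60, 0.60, 0.70 and 0.56 from 1 probe, an SD of 0.08. Of 38 opioid, cannabinoid and neuropeptide receptors, 0 were expressed and 31 were not detected.

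Among 26 glutamate receptor genes, 5 were expressed: the kainate subunit Grik5, the NMDA subunits Grin1 and Grin2d, and the metabotropic receptors Grm2 and Grm6. No AMPA subunit (Gria1 to Gria4) was detected. Grin2d was lowest on control 2, at 1.60, and highest on control 5, at 3.06, and 1 of its 3 probes passed on all arrays. Among 25 GABA and glycine receptor genes, 4 were expressed: Gabrq, Gabbr1, Glra1 and Glra2. No alpha, beta or gamma subunit of the GABA-A receptor was detected, nor was the glycine receptor beta subunit Glrb. Glra2 passed with both probes and had levels of 2.65, 2.57, 1.89, 1.80, 1.81 and 2.16, with the slide 1 arrays highest. Of 36 nicotinic, 5-HT3 and purinergic genes, 6 were expressed, among them Chrna1, Chrnb4, P2rx4 and Adora2b, and Chrna4, Chrna7, Chrnb2 and P2rx7 were not detected.

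Of 50 receptor tyrosine kinases, which bind growth factors, 18 were expressed. They included Egfr, Erbb2, Fgfr1, Fgfr2, Fgfr3, Pdgfrb, Igf1r, Met and Kit. Met, the hepatocyte growth factor receptor, ranged from 1.60 to 2.17, and Kit, the stem cell factor receptor, passed with both probes at a mean of -0.52 ± 0.11 (SD, n = 6). Of the neurotrophin receptors, Ntrk3 and Ngfr were not detected, and Ntrk2 was well above background on 2 arrays, with 6 probes. Of 12 co-receptors for GDNF, neurotrophins and gp130 cytokines, 3 were expressed, including Il6st and Lifr, and Gfra1 to Gfra4 were not detected. Of 32 receptors of the TGF-beta, BMP, Notch, Wnt and Hedgehog families, 15 were expressed, including Tgfbr1, Tgfbr2, Notch1, Fzd1, Fzd2, Lrp6 and Smo.

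Ligands were expressed in 29 of 54 cases. Neurotrophic factors on the list were divided, with Bdnf, Cntf, Nrtn and Artn expressed and Gdnf and Ntf3 not detected. Bdnf was highest on control 2, at -3.17, and lay between -4.25 and -3.87 on the other arrays, near the background limit. The chemokines Ccl2, Cxcl1, Cxcl2 and Cxcl12 were expressed. Ccl2 had levels of 4.95, 4.86, 5.09, 4.65, 4.47 and 4.62, and Cxcl1 ranged from 4.49 to 4.93. Their receptors on the list, Ccr2 for Ccl2 and Cxcr4 and Ackr3 for Cxcl12, were not detected. Il6 was not detected, and Il1b and Tnf were well above background on 1 and 5 arrays.

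Of 31 cytokine, interferon and Toll-like receptors, 15 were expressed, among them Tnfrsf1a, Ifngr1, Ifngr2, Il17ra, Tlr2 and Tlr4. Tnfrsf1a, the main receptor for TNF, had a mean of 1.44 ± 0.07 (SD, n = 6). Of 45 nuclear receptors, 15 were expressed, including the glucocorticoid receptor Nr3c1, Thra, Rara, Rarg, Ppara, Pparg and Esrra. Nr3c1 rested on 1 of 3 probes and was lowest on control 5, at -2.0, and highest on control 3, at -0.69. The sex steroid receptors Pgr and Esr2 were not detected, and Esr1 was well above background on 1 array.

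Over all channel lists, 48 of 175 genes were expressed (27.4%) and 102 were not detected. Of 14 voltage-gated sodium channel genes, 0 were expressed and 11 were not detected, among them the neuronal pore subunits Scn1a, Scn2a, Scn3a and Scn9a. Scn8a was well above background on 1 array and the beta subunit Scn2b on 4. Of 20 voltage-gated calcium channel genes, 4 were expressed, the T-type pore subunit Cacna1i and the auxiliary subunits Cacna2d2, Cacnb1 and Cacnb3, and 11 were not detected. With the flag for a positive and significant signal, 8 calcium channel genes were expressed. Cacna1c, the L-type subunit of many excitable cells, was well above background on 4 arrays, and Cacna1d was not detected. Of 66 potassium channel genes, 12 were expressed and 44 were not detected. The expressed genes included the sodium-activated Kcnt1, the small-conductance calcium-activated Kcnn3, the inward rectifier Kcnj12, the two-pore channels Kcnk5 and Kcnk6, and the modifier subunit Kcng1. Kcnj6, the inward rectifier of midbrain dopaminergic neurons, and Kcna1, Kcna2, Kcnb2, Kcnc1, Kcnd2 and Kcnq3 were not detected.

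Store-operated, mechanosensitive and volume-regulated channels had expressed members. Of 46 genes for TRP, HCN, ASIC, Piezo and store-operated channels, 15 were expressed. All 3 Orai pore subunits and both Stim sensors of store-operated calcium entry were among them, as were Piezo1, Trpv4 and Trpm7. Stim1 was steady, at -0.49 ± 0.08 (SD, n = 6), whereas Orai1 ranged from -3.57 on control 2 to -2.16 on control 6. Of 29 chloride and mitochondrial anion channel genes, 17 were expressed, including all 5 Lrrc8 subunits of the volume-regulated anion channel and all 3 mitochondrial porins, Vdac1, Vdac2 and Vdac3. Cftr, Ano1 and Clcn1 were not detected.

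Over all metabolic lists, 185 of 273 genes were expressed (67.8%), against 49.7% of all named genes. These lists also hold xenobiotic metabolism and efflux, where 23 of 55 genes were expressed (41.8%). In glycolysis 24 of 37 genes passed, and paralogues of the same step often had different calls. The glucose transporter Slc2a1 had a mean of 1.38 ± 0.09 (SD, n = 6), and the neuronal transporter Slc2a3 was not detected, nor were Slc2a2 and Slc2a4. Hk1 and Hk2 were expressed, and Hk3 was not detected. Pkm was expressed and Pklr was not detected. Ldha had levels of 6.72, 6.94, 7.0, 6.69, 6.99 and 6.59, with all 3 probes passing, while Ldhb, the heart-type subunit, lay between -7.30 and -6.51 and was not detected. The lactate exporter Slc16a3 ranged from 3.11 to 3.94. In gluconeogenesis and glycogen metabolism 8 of 16 genes passed. The mitochondrial Pck2 was expressed, and the cytosolic Pck1, G6pc1, Fbp1 and Fbp2 were not detected.

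Of 37 genes of pyruvate metabolism and the citric acid cycle, 32 were expressed. Citrate synthase (Cs) ranged from 2.37 to 2.84 and the succinate dehydrogenase subunit Sdha from 1.78 to 2.13. The 5 not detected were Pdha2, Pdhx, Pdk4, Ogdhl and Me3. Of 32 genes of the pentose phosphate pathway and nucleotide synthesis, 29 were expressed, and Tktl1, Prps2 and Rrm2b were not detected. The ribonucleotide reductase subunit Rrm2 had a mean of 5.13 ± 0.21 (SD, n = 6). Transketolase (Tkt) lay between 5.33 and 5.84 on 5 arrays and at 4.71 on control 8.

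In fatty acid and sterol metabolism 31 of 46 genes were expressed, including Acly, Acaca, Fasn, Scd2 and Fdps. Scd2 was expressed and its paralogue Scd was not detected. The fatty acid binding protein gene Fabp5 passed with both probes, with levels from 5.07 to 5.77, and Fabp1, Fabp3, Fabp4 and Fabp7 were not detected. Of 50 genes of amino acid, one-carbon, urea and polyamine metabolism, 38 were expressed. The liver enzymes Cps1, Otc, Tat, Tdo2 and Hal were not detected, whereas Ass1, Asl, Arg1 and Arg2 of the urea cycle were expressed.

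Of 55 genes of xenobiotic metabolism and efflux, 23 were expressed. The aryl hydrocarbon receptor Ahr and the cytochrome P450 genes Cyp1a1, Cyp1a2 and Cyp1b1 were not detected. Arnt, Nqo1 and Ugt1a6 of the same list were expressed. Cyp1a1 ranged from -7.40 to -6.47. The glutathione transferase Gstp1 ranged from 2.53 to 3.22, and the exporters Abcb1b, Abcc1, Abcc4, Abcc5 and Abcg2 were expressed. Of the cytochromes P450 listed, Cyp2s1, Cyp2u1 and Cyp3a9 were expressed. Cyp2u1 had levels of -3.18, -3.66, -1.55, -1.23, -2.62 and -2.45, with controls 5 and 6 highest.

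Cell cycle genes were expressed in 41 of 48 cases. The kinase Cdk1 was among the steadiest, with levels of 4.0, 4.05, 4.13, 4.05, 4.11 and 4.0, and the clamp Pcna had a mean of 3.0 ± 0.10 (SD, n = 6). All 6 listed subunits of the MCM helicase, Mcm2 to Mcm7, were expressed. The inhibitor Cdkn2a ranged from 2.49 to 3.16. Among D-type cyclins Ccnd3 was expressed, Ccnd1 was well above background on 3 arrays and Ccnd2 was not detected. The proliferation marker Mki67 passed with all 4 probes and had levels of 2.76, 2.48, 0.96, 1.0, 1.39 and 2.55. Controls 5, 6 and 7 were thus lower for Mki67 than the other 3 arrays. All 16 reference genes were expressed, with Tbp, Polr2a and Gusb each at an SD of 0.10.

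The untreated arrays differed among themselves in groups of genes. Of the 9103 expressed genes, 165 (1.81%) had a gap of at least 2-fold between neighbouring values when the 6 arrays were put in order. In 113 of them controls 5, 6 and 7 lay below the gap and controls 2, 3 and 8 above it, and in 0 the reverse. In 20 controls 5 and 6 lay above the other 4 arrays, and in 4 they lay below. These sets of arrays were read from the values and cross the slides, and the genes are described with no test. No label or slide separates these sets of arrays.

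The 113 genes low on controls 5, 6 and 7 included the mitotic genes Knl1 and Kif20b, the nucleoporin Ranbp2, the kinase Rock1 and the chromatin remodeller Atrx. Knl1 had levels of -0.76, -1.14, -4.33, -4.83, -4.45 and -1.23, and Kif20b of -0.64, -1.14, -3.89, -4.36, -4.01 and -0.97. Knl1 rested on 1 of 2 probes and Atrx on 1 of 4. On controls 5, 6 and 7 Knl1 lay near the lowest flagged levels of those arrays, -4.78, -5.10 and -5.14. Ranbp2 passed with both probes and had levels of 0.91, 0.50, -2.29, -2.20, -2.10 and 0.47. The distance between the 2 sets of arrays in these genes follows from how the 113 were picked. Of the listed genes, Elavl2 and Mki67 belonged to the 113. The probes of the 113 had a median of 36.7% G and C, against 41.7% over all expressed genes. Over expressed genes, the deviation of an array from the gene's median correlated with the G and C content of the probe at -0.35 and -0.29 on controls 2 and 3, 0.22 and 0.26 on controls 5 and 6, and 0.11 and 0.06 on controls 7 and 8 (Spearman's rho over 9103 genes, which share libraries and are not independent). The part of base composition in these differences was not tested.

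Of the 20 genes higher on controls 5 and 6, 5 were members of a list: Asns, Phgdh and Psph of amino acid synthesis, Aldh18a1 of proline synthesis, and Pck2. The pseudokinase gene Trib3 had levels of -1.75, -1.13, 1.14, 0.95, -1.50 and -0.90. Asparagine synthetase (Asns) had levels of -0.54, -0.20, 1.74, 1.81, 0.27 and 0.19. The serine synthesis enzymes Phgdh and Psph behaved alike, Phgdh at 3.96, 3.98, 5.54, 5.55, 4.36 and 4.16 and Psph at -0.46, -0.51, 1.22, 1.12, -0.29 and -0.60. That controls 5 and 6 lay above the other 4 arrays in these genes follows from how the 20 were picked. The stress-induced regulator Nupr1 passed with both probes and was at 1.71 and 1.87 on controls 5 and 6 and between -0.88 and -0.14 elsewhere. The transcription factors Atf4 and Ddit3 were also highest there, Atf4 at 5.26 and 5.23 against 4.38 to 4.51, and Ddit3 at 2.75 and 2.67 against 1.14 to 1.75. Hmgcs1, an enzyme of sterol synthesis, and the immediate early gene Egr1 ran the other way, Hmgcs1 at 1.41 and 1.30 against 2.51 to 2.90, and Egr1 at -0.98 and -0.82 against 0.55 to 0.75. Trib3 is among the 12 most variable genes on slide 2, Asns, Psph, Phgdh and Hmgcs1 are list members, and the others were chosen after their values were seen.

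Of the 20 genes higher on controls 5 and 6, which were picked from their values, 16 had a promoter sequence. No test was run on their motifs. The C/EBP-ATF site TGATGNAA, on either strand, was held by 5 of the 16. It was held by 1.70% of the promoters of expressed genes and by 3.27% of all promoters. The 250 bases before the start of Trib3, at chr3:161275534-161275783 on the minus strand of GRCr8, are shown with that match in capitals.
Trib3: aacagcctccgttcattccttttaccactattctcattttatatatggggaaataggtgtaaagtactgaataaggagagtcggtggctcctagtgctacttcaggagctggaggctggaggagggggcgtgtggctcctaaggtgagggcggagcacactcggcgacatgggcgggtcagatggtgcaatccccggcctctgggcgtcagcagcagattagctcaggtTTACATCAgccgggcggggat
The letters were not found in the same window of Asns or Psph, which says nothing about sites elsewhere.

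**Figure D5:**
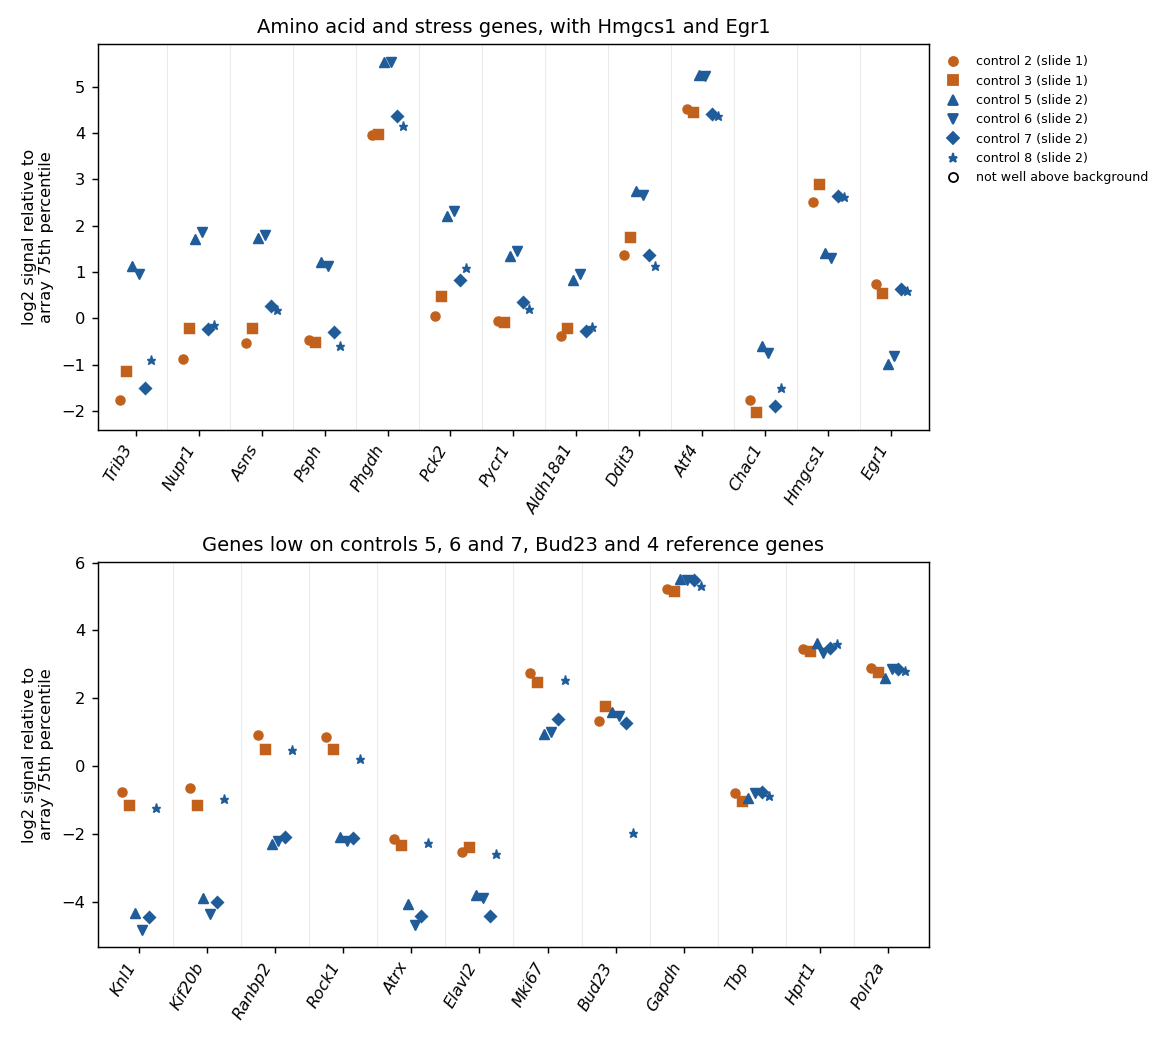
Levels on each of the 6 untreated arrays (log2 signal relative to the array's 75th percentile), with 1 symbol per array, slide 1 in orange and slide 2 in blue. In the upper panel controls 5 and 6 stand above the other arrays for genes such as Trib3, Asns and Phgdh and below them for Hmgcs1 and Egr1. In the lower panel controls 5, 6 and 7 stand low for Knl1 to Mki67, control 8 is low for Bud23 at -1.96, and Gapdh, Tbp, Hprt1 and Polr2a differ little between arrays.

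The 12 expressed genes with the largest SD over the 4 arrays of slide 2 were Bud23, Knl1, Kif20b, Trim55, Phip, Ranbp2, Trib3, Zfp292, Ro60, Zfp182, Rif1 and Rock1. Bud23, a methyltransferase of ribosomal RNA, was at -1.96 on control 8 and between 1.26 and 1.76 on the other 5 arrays, with 1 probe. Of these 12 genes, 9 had controls 5, 6 and 7 lowest. In all, 34 expressed genes had an SD of at least 1 over these 4 arrays, and control 8 was the highest of the 4 in 28 of them. The median SD on slide 2 was 0.19 over expressed genes.

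The 2 slides that held the controls were compared gene by gene. Of 9103 expressed genes, 0 (0%) passed limma's Benjamini-Hochberg threshold of 0.05, where the smallest adjusted p was 0.112. Before adjustment, 2211 genes had a p below 0.05. The 2 arrays of slide 1 did not overlap with the 4 arrays of slide 2 in 3257 genes. The count rested on control 8, which sits on slide 2 but lay closer to slide 1 for the 113 genes above: without it 1369 genes passed, 422 higher and 947 lower on slide 2. Without control 2, 5 genes passed, and without any 1 of the other 4 arrays 0 passed.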

How the data were processed

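RNA from 6 untreated N27 samples had been hybridised to one-colour arrays of 45598 probes. Per the submitters' processing notes, the authors extracted spot intensity values with Agilent Feature Extraction 10.7, and the processed signal, an intensity already background-subtracted, and its flags were used as deposited. The authors' deposited log2 table was normalized by quantiles over all 12 arrays, as found from its values, has a floor of 1.5 and was used as an alternative only. Control spots and outlier spots were left out, spots of 1 probe were averaged, and log2 of the signal minus the array's 75th percentile gave the level. A gene's level is that of its probe that was well above background on most arrays. Probes were named through RefSeq (GRCr8), 21109 by accession, 6684 by symbol and 424 by synonym, and 17381 kept the name in the file. Counts of expressed genes come from the flags and carry no test. Slides were compared by a two-sided moderated test in limma 3.58.1 on R 4.3.3, with Benjamini-Hochberg adjusted p-values, after the steps were tested on simulated data, and other steps used Python 3.11.15 with pandas 2.3.3 and numpy 2.4.6. The p-values measure only the spread between these arrays, which may be technical, and the number of arrays limits the precision. Alternatives changed the flag, the number of arrays or probes required, the slides, the gene names, the scaling, the background and the outlier spots, and left out each array in turn.

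The 45 gene lists and their members were chosen with earlier results of these data known. All expressed members were named where there were 12 or fewer and the first 8 otherwise, with the first 6 not detected, 19 marker genes and the 12 most variable genes. Values of other list members, and of genes outside the lists, were chosen after they were seen. Some list members are counted but not reported here by name.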

Additional observations from a re-analysis of the deposited data

Results flagged for a closer look

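Of 271 values examined over the 6 untreated arrays, 15 (5.54%) had 1 array far from the other 5 by Dixon's test, and chance marks about 1 in 20. Control 2 was the array apart in 7 of them. It was the lowest for Th, at -1.93, for the myelin enzyme gene Cnp, at -3.38, for the interferon gamma receptor Ifngr2, at -0.36, for the scramblase gene Ano10, at 2.61, and for the phosphofructokinase Pfkm, at -0.048. It was the highest for the homeobox gene Meis1, at -2.72, and for Bdnf, at -3.17. Control 5 was the lowest for Col1a1, at -3.25, for Hoxb3, at -2.25, and for Notch1, at -2.22. It was the highest for Pfkfb1, at -1.40, and for the ribosomal protein gene Rplp0, at 8.52. Control 3 was the lowest for Hoxb7, at -3.11, and held the brightest spot of any control array, with a signal of 545429. Control 8 was the lowest for Bud23, at -1.96.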

How the results depend on the processing

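The number of genes not detected was 7163 and depended on the definition: it was 1916 with the flag for a positive and significant signal, 3162 with a signal above the 99th percentile of the negative controls, and 19120 when unnamed transcripts were counted too. The count of expressed genes was between 8814 and 10782 over the settings on named genes, and between 9109 and 9338 with any 1 array left out. Over all 36181 genes and transcripts it was 12704. With the positive and significant flag, 17 of the 45 list counts moved. The 4 lists with no expressed member then had 3 (midbrain dopaminergic), 3 (other transmitters), 4 (neuropeptide receptors) and 1 (sodium channels). The others went from 6 to 11 for synaptic genes, 7 to 12 for patterning, 3 to 7 for oligodendrocyte, 4 to 7 for microglia and leukocyte, 5 to 9 for neural crest, 3 to 5 for epithelial genes and 2 to 7 for liver, muscle, pancreas, blood and retina. Receptor lists went from 3 to 8 for monoamine and muscarinic receptors, 4 to 7 for GABA and glycine receptors and 3 to 7 for GDNF, neurotrophin and gp130 co-receptors. Calcium channels went from 4 to 8, olfactory receptors from 12 to 48, and vomeronasal and taste receptors from 5 to 15. A signal above the 99th percentile of negative controls moved 7 list counts, a requirement of 3 of 6 arrays moved 8, and slide 2 alone moved 5. Between slides, 2 genes passed with no filter on dim probes, and 0 to 1369 with 1 array left out, the highest number without control 8 and 5 without control 2. The median SD on slide 2 was 0.19, became 0.23 with median scaling, and was 0.154 to 0.199 with 1 array left out, an alternative chosen after seeing the data. The median level of the named genes was -1.44 and became 3.48 with median scaling, which moves the zero point. No paired analysis was possible because only 1 group is described. Signal over background limits every call of not detected, and where probes of a gene disagree the call rests on the probe that passed on most arrays. The cause of the other changes was not tested.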
